A study of Mus musculus with 17 samples.

Results

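JUNB binding in resting macrophages was set against its binding after 4 h of interferon gamma (IFNg), by comparing the peak lists of 1 ChIP-seq library each. A peak is a region where the authors' caller found more JUNB-bound fragments than in an input library. Of 7428 peaks listed with IFNg, 4359 overlapped a peak of the untreated list by at least 1 bp and are called shared. The other 3069 are called IFNg-only. The untreated list held 9229 peaks, of which 4332 were shared and 4897 are called untreated-only. These 16657 peaks were all those of both lists on chromosomes 1 to 19, X and Y, after removing any that overlapped the input list, and that step took none of them. Both lists together are part of 144384 such peaks in the 16 ChIP lists of the series.

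Both libraries, labelled wt (wild type), came from macrophages of C57BL/6 mice, grown from bone marrow and used on day 7 of differentiation. One culture was left untreated and the other received IFNg at 100 ng/ml for 4 h. Lists of other libraries were used beside them: JUNB after 4 h of IFNg (100 ng/ml) with interleukin 4 (IL4, 10 ng/ml), IRF1 and CEBPB untreated and after 4 h of IFNg, and STAT6 after 2 h of IL4 alone or with IFNg. Nothing in the labels names a second culture or animal for any group. With 1 library per group there is no replicate check and no test, and each comparison describes these libraries. JUNB is a basic leucine zipper protein that pairs with FOS, BATF or ATF family members to form AP-1, which binds the letters TGANTCA. In macrophages AP-1 acts with the lineage factor PU.1 at enhancers, and JUNB takes part in the response to inflammatory stimuli. IFNg signals through JAK kinases, and the signal switches on IRF1. IRF1 then binds repeats of GAAA in the promoters of many interferon-induced genes.

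The thresholds of both lists differed. Every peak of the IFNg list had a −log10 q (the caller's adjusted p) of at least 2, while 3874 of the 9229 untreated peaks, 42.0%, lay below 2. From the steps in the caller's values the untreated library was estimated to be 1.54 times as deep as the IFNg library. Absence from the untreated list is therefore the stricter of both kinds of absence, and more weight is given here to the IFNg-only peaks. Of the untreated peaks 5355 reached 2 as well, and they are called threshold-matched below. The untreated-only peaks are described mainly by the 1951 that were threshold-matched. Median fold enrichment at shared peaks was 5.12 in the untreated list and 8.01 in the IFNg list. Each value belongs to its own library, and a library that is more enriched overall cannot be told apart from the treatment.

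Promoter sequences are shown first because their letters differed between the classes. Of 21262 RefSeq promoter windows (250 bases before to 50 after a start, GRCm38.p6), 36 windows of 34 genes held the summit of an IFNg-only peak, and 102 windows of 92 genes held that of a shared peak. The IRF letters (GAAA, any 2 bases, GAAA), searched on both strands, were present in 11 of the 36 IFNg-only windows, 30.6% (16.3 to 48.1%), and in 9 of the 102 shared windows, 8.82% (4.11 to 16.1%). They were present in 3.35% of all windows. The difference between the classes, 21.7 percentage points, was 12.7 with the threshold-matched untreated list, an alternative added after seeing the data, and 12.3 with both lists at a −log10 q of 5 or more. The AP-1 letters TGANTCA had the opposite order, with 6 of 36 IFNg-only windows, 16.7% (6.37 to 32.8%), 45 of 102 shared windows, 44.1% (34.3 to 54.3%), and 6.99% of all windows. Percentages in parentheses here and below are exact Clopper-Pearson 95% intervals, which cover counting error only. Neighbouring windows of a gene can share a peak. Stretches upstream of the start in IFNg-only promoters are given 5′ to 3′ along the gene, with the IRF letters or their reverse complement in capitals. These promoters were chosen after their values were seen.
Tlr6 (chr5:64959242-64959307, minus strand): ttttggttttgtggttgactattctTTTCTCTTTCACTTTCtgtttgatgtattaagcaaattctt
Irgm1 (chr11:48871421-48871475, minus strand): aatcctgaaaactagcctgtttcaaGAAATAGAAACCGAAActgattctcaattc
Kcnab1 (chr3:65187988-65188053, plus strand): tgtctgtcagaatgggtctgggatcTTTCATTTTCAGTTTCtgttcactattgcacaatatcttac
Tmem140 (chr6:34863058-34863117, plus strand): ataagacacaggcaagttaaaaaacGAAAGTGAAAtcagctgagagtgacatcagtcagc
Gm12250 (chr11:58183727-58183831, plus strand): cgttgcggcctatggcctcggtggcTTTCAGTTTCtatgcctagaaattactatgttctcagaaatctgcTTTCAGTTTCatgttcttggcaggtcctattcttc
Parp11 (chr6:127446771-127446830, plus strand): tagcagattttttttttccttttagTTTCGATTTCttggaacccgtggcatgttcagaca

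Tlr6 encodes a Toll-like receptor that pairs with TLR2, Irgm1 and Gm12250 encode interferon-inducible GTPases, and Kcnab1 a potassium channel subunit. Of the 11 IFNg-only windows with IRF letters, which belong to 10 genes, 8 also lay under an IRF1 peak of the IFNg library. The summit of the IFNg-only peak lay 112 bases upstream of the start at Tlr6, 81 at Irgm1, 103 at Kcnab1 and 98 at Tmem140. At Gm12250 it lay 39 bases downstream of the start. The peak at Tlr6 had a −log10 p of 64.3 and those at Irgm1, Kcnab1 and Tmem140 had 13.3, 12.7 and 12.6. These p-values are the authors' own, against the input, and rank peaks only within a list.

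Shared promoters with AP-1 letters are given in the same way, with TGANTCA in capitals. Cxcl10, which encodes a chemokine for activated T cells, and Gbp2, a guanylate-binding protein gene, follow from the naming rule. Tnfsf13b, the gene of the B-cell survival factor BAFF, Tnfaip3, the gene of the ubiquitin-editing enzyme A20, and Tlr9, a receptor for unmethylated DNA, were chosen after their values were seen. Those of Tnfsf13b, Gbp2 and Cxcl10 also held the IRF letters and lay under an IRF1 peak. The untreated peak at the Cxcl10 promoter had a −log10 p of 4.79 and was not threshold-matched.
Tnfsf13b (chr8:10006481-10006537, plus strand): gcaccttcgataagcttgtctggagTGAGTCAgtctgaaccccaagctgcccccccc
Tnfaip3 (chr10:19015515-19015571, minus strand): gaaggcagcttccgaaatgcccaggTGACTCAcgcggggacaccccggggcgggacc
Gbp2 (chr3:142620536-142620592, plus strand): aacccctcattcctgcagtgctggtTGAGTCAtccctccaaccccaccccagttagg
Cxcl10 (chr5:92348932-92348988, minus strand): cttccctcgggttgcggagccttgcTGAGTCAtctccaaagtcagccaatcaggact
Tlr9 (chr9:106222515-106222571, plus strand): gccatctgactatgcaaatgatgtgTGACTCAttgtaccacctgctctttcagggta

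The AP-1 letters were also found upstream of the start in a few IFNg-only promoters. They are shown for Upp1, which encodes uridine phosphorylase, for Irgm1, where they lie upstream of the IRF letters shown above, and for Il15ra, a receptor chain for interleukin 15.
Upp1 (chr11:9117938-9117994, plus strand): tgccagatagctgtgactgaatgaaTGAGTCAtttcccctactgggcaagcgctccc
Irgm1 (chr11:48871504-48871560, minus strand): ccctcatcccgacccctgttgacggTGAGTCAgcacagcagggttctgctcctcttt
Il15ra (chr2:11705657-11705711, plus strand): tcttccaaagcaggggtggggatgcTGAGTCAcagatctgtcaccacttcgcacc

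Further promoters with an IFNg-only summit and none of the IRF letters were those of Klrk1, an activating lectin receptor gene (−log10 p 49.4), Phf11d (49.4) and Clec9a (40.8). Others were Tlr12 (40.0), the chemokine gene Ccl12 (28.9), and Acod1 (17.4), which encodes the enzyme that makes itaconate. Ptgs2, the gene of inducible cyclooxygenase, had a weak one (7.66). All but Ccl12 were named after their values were seen. Among the other motifs searched on both strands, the C/EBP letters TTGCNNAA were in 9 of 36 IFNg-only windows, 16 of 102 shared windows and 10.2% of all windows. The PU.1 letters GAGGAAGT were in 3 of 36 (8.33%), 15 of 102 (14.7%) and 3.13%, and the RUNX letters TGTGGT in 10 of 36 (27.8%), 26 of 102 (25.5%) and 15.0%. The NF-kB letters (GGGA, any 4 bases, CC) were in 9 of 36 and 24 of 102 (23.5%), with 4900 of all 21262 windows, and the E-box CACGTG in 2 of 36, 9 of 102 and 7.84%. The STAT letters TTCNNNGAA were in 3 of 36 (8.33%), 6 of 102 (5.88%) and 7.69%, and their stricter form TTCCNGGAA in 0 of 36, 1 of 102 and 1.17%. For each of these motifs the intervals of both classes overlapped, and 36 windows give little precision.

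Genome-wide the IFNg-only peaks were 41.3% of the IFNg list (40.2 to 42.4%). They tended to be weaker than shared peaks of the same list, with a median −log10 p of 15.2 against 19.4 and a median width of 223 against 264 bp. They were not confined to weak peaks. With each list ranked by −log10 p and cut into 5 classes of equal size, 52.6% of the weakest class of the IFNg list were IFNg-only (50.0 to 55.1%) and in the strongest class 408 of 1486, 27.5% (25.2 to 29.8%). Among the 100 strongest peaks of the list 23 were IFNg-only, and among the 50 strongest 9. The untreated list differed at its upper end. Of all its peaks 53.1% were untreated-only, and of the threshold-matched ones it was 36.4%, from 62.2% in the weakest class to 3.83% (2.76 to 5.16%), or 41 of 1071 peaks, in the strongest.

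**Figure D1:**
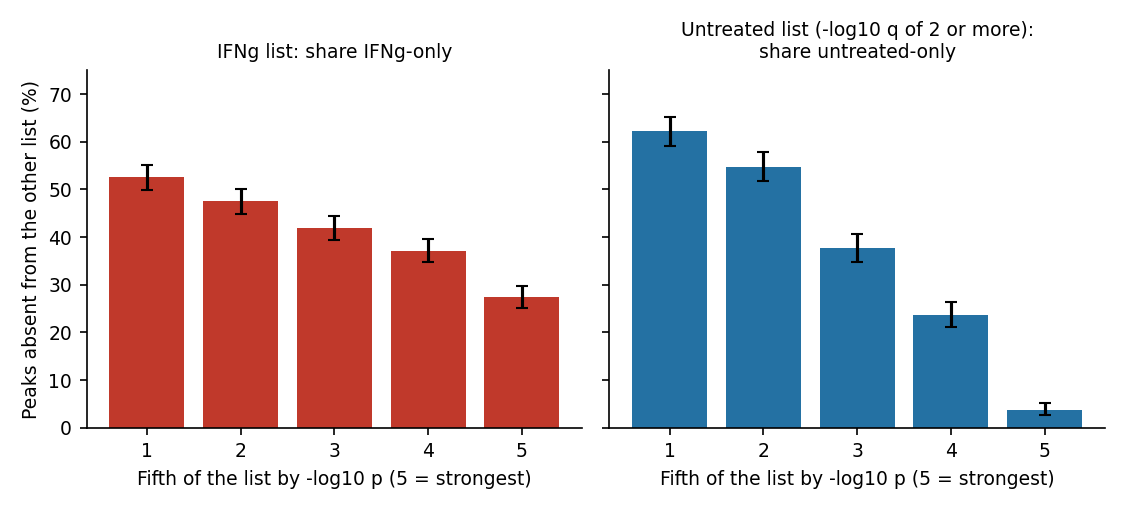
Share of JUNB peaks with no overlapping peak in the other list (y axis, %), by class of the list ranked on the authors' −log10 p (x axis, 5 classes of equal size), for the IFNg list on the left and the threshold-matched untreated list on the right. Bars are shares of peaks of 1 library and error bars exact 95% intervals. The IFNg-only share is 52.6% in the weakest class and 27.5% in the strongest, and the untreated-only share 62.2% and 3.83%.

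Most IFNg-only peaks lay far from any JUNB peak of untreated cells. The median gap to the nearest untreated peak was 29920 bp, 2221 of the 3069 (72.4%) were over 10 kb away and 762 were over 100 kb away. Only 88 were within 500 bp of an untreated peak. At shared sites the summits of both lists lay a median of 27 bp apart, and 4048 of 4359 (92.9%) were within 100 bp. IFNg-only peaks also lay near shared ones, with 922 (30.0%) within 20 kb of a shared peak. Across chromosomes the IFNg-only share ran from 36.4% on chromosome 15 (107 of 294 peaks, 30.9 to 42.2%) to 50.0% on chromosome 12 (166 of 332, 44.5 to 55.5%).

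The IFNg-only peaks had ranks among the strongest of their list. The strongest of all, rank 2 of 7428, lay inside Etv6, which encodes an ETS-family repressor (chr6:134225447-134226087, −log10 p 336). The next, rank 3, lay 2.74 kb from Ppt1, a gene of lysosomal protein turnover (chr4:122833025-122833853, 293). The third, rank 10, lay 75.3 kb from Itgb8, an integrin gene (chr12:119313085-119313869, 227). Others of the 10 strongest lay inside Pitpnb, a phosphatidylinositol transfer protein gene (217), inside Tbxas1, the gene of thromboxane synthase (184), and near Vps54, a vesicle tethering gene (177). The rest lay inside Slc38a11, a transporter gene (169), 46.9 kb from Itga8, an integrin gene (156), inside Slc8a1, a sodium-calcium exchanger gene (156), and 88.0 kb from Ccnd2, the gene of cyclin D2 (155). The nearest gene is named by position only.

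All 10 were also listed in the JUNB library with IFNg+IL4, a separate library of the same factor. Of the 10, 6 overlapped an IRF1 peak and 7 a CEBPB peak of the IFNg libraries, while none overlapped a CEBPB peak of untreated cells and 1 a STAT6 peak with IL4. The 6 strongest shared peaks of the list lay nearest to Otud1, a deubiquitinase gene (chr2:19630341-19631079, −log10 p 344, the strongest of the list), 56.7 kb from Nfkbiz, an inhibitor kappa B family gene (281), and inside Arhgef3, a guanine nucleotide exchange factor gene (271). The others lay inside Cd36, a scavenger receptor gene (258), inside Ap3s2, an adaptor subunit gene (249), and 17.2 kb from Macc1 (234). Of these 6, 3 overlapped an IRF1 peak and 6 a CEBPB peak with IFNg, 4 a CEBPB peak of untreated cells and 5 a STAT6 peak with IL4, and 6 were in the IFNg+IL4 JUNB list. Both sets of named peaks thus had IRF1 at similar shares, and STAT6 and untreated CEBPB mainly at the shared ones.

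Over the whole lists the classes differed for each factor with many peaks. IRF1, which is induced by IFNg, had 4189 peaks with IFNg, and they overlapped 675 IFNg-only JUNB peaks, 22.0% (20.5 to 23.5%), against 314 shared ones, 7.20% (6.45 to 8.01%). Over all IFNg JUNB peaks it was 13.3%. Of threshold-matched untreated-only peaks 19 of 1951 had an IRF1 peak, 0.974% (0.587 to 1.52%). The order was the same in each of the 5 classes of the IFNg list, where the IRF1 share was 17.9 to 30.1% for IFNg-only and at most 12.2% for shared peaks. In untreated cells the IRF1 list held only 244 peaks, and 4 IFNg-only and 7 shared JUNB sites overlapped one. Seen from IRF1, 674 of its 4189 peaks with IFNg (16.1%) lay on an IFNg-only JUNB peak and 314 on a shared one.

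CEBPB, which also binds DNA through a leucine zipper, showed the reverse order. In untreated cells its 5540 peaks overlapped 213 IFNg-only JUNB peaks, 6.94% (6.07 to 7.90%), and 1173 shared ones, 26.9% (25.6 to 28.3%), with 18.7% over all IFNg JUNB peaks. With IFNg its list held 21499 peaks and overlapped 1308 IFNg-only JUNB peaks, 42.6% (40.9 to 44.4%), and 3007 shared ones, 69.0% (67.6 to 70.4%), with 58.1% over all. Of the JUNB peaks that overlapped a CEBPB peak with IFNg, some overlapped none of untreated cells. These were 1095 of 1308 IFNg-only JUNB peaks, 83.7% (81.6 to 85.7%), and 1834 of 3007 shared ones, 61.0% (59.2 to 62.7%). Of all 21499 CEBPB peaks with IFNg, counted as CEBPB peaks, 74.4% overlapped no untreated CEBPB peak. That percentage has another unit than the shares of JUNB peaks. The part of list length in these shares was not tested.

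STAT6 carries the IL4 signal to the nucleus, and its peaks were listed for cells with IL4 alone and with IFNg+IL4. Its IL4 list overlapped 928 IFNg-only peaks, 30.2% (28.6 to 31.9%), and 3074 shared peaks, 70.5% (69.1 to 71.9%), with 53.9% over all IFNg JUNB peaks. Its list with IFNg+IL4, added after the values were seen, overlapped 1216 IFNg-only peaks, 39.6% (37.9 to 41.4%), and 2978 shared ones, 68.3% (66.9 to 69.7%), with 56.5% over all. At threshold-matched untreated-only sites the order of both STAT6 lists was the other way round, with 943 of 1951 (48.3%) for IL4 and 748 (38.3%) for IFNg+IL4. The IL4 list held 24927 peaks and the IFNg+IL4 list 21481. The part of list length, depth or threshold in these shares was not tested.

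The IFNg+IL4 JUNB library offered a second look at JUNB binding in the presence of IFNg, with IL4 as a difference. Its list held 5556 peaks and included 1472 of the IFNg-only peaks, 48.0% (46.2 to 49.7%), and 3130 of the shared ones, 71.8% (70.4 to 73.1%), against 62.0% of all IFNg peaks. It included 276 of the 1951 threshold-matched untreated-only peaks, 14.1% (12.6 to 15.8%). Strength mattered for all classes. In the strongest class of the IFNg list 95.1% of IFNg-only and 99.2% of shared peaks were in the IFNg+IL4 list, and in the weakest 19.3% and 38.0%. Of the 41 untreated-only peaks in the strongest class of the threshold-matched untreated list, 12 were in the IFNg+IL4 list, 29.3% (16.1 to 45.5%), against 94.1% of shared peaks of that class.

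**Figure D2:**
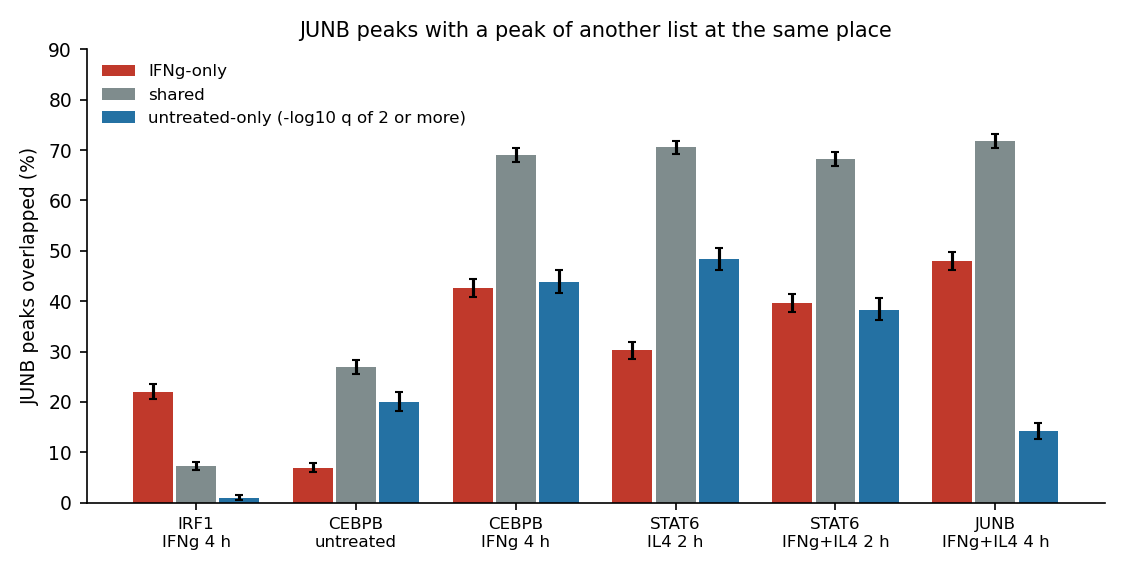
Share of JUNB peaks (y axis, %) that overlap a peak of the list named on the x axis, for IFNg-only, shared (counted in the IFNg list) and threshold-matched untreated-only peaks. Bars are shares of peaks of 1 library each and error bars exact 95% intervals. IRF1 with IFNg is the list with a higher share at IFNg-only than at shared peaks, 22.0% against 7.20%, and untreated-only peaks are the class least often found in the JUNB IFNg+IL4 list, 14.1%.

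IRF1 and CEBPB split the IFNg-only peaks into 4 groups. With IFNg, 365 had both factors (11.9%), 310 IRF1 without CEBPB (10.1%), 943 CEBPB without IRF1 (30.7%) and 1451 neither (47.3%). Among shared peaks the same 4 groups held 248 (5.69%), 66 (1.51%), 2759 (63.3%) and 1286 (29.5%). IFNg-only peaks with both factors had a median −log10 p of 18.5, and 62.2% of them (57.0 to 67.2%) were also in the IFNg+IL4 JUNB list. With IRF1 alone it was 58.4% (52.7 to 63.9%), with CEBPB alone 42.7% (39.6 to 46.0%) and with neither 45.6% (43.0 to 48.2%). The same share for shared peaks ran from 66.3% with neither factor to 87.9% with both.

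IFNg-only summits lay less often directly at a start and more often inside genes than shared ones, while at wider distances the classes were close. Of the peaks on chromosomes with starts in the RefSeq promoter table, 4.08% of IFNg-only (122 of 2993), 4.58% of shared (194 of 4238) and 5.99% of threshold-matched untreated-only peaks (113 of 1888) had a summit within 1 kb of a start. Over all untreated-only peaks it was 7.53%. Within 250 bp it was 1.34% (0.956 to 1.82%) for IFNg-only, 2.64% (2.18 to 3.17%) for shared and 3.28% (2.53 to 4.19%) for threshold-matched untreated-only peaks. Within 5 kb the order of IFNg-only and shared peaks was reversed, at 14.3% and 12.8%. The median distance to a start was 34.4 kb for IFNg-only, 36.6 kb for shared and 33.6 kb for threshold-matched untreated-only peaks. Inside the span of a protein-coding gene lay 54.1% (52.3 to 55.8%) of IFNg-only and 49.2% (47.7 to 50.7%) of shared summits.

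Genes were next compared by the peaks whose summit lay within 20 kb of their span. Of 21883 protein-coding genes 11.0% had an IFNg-only peak, 13.8% a shared peak and 7.98% a threshold-matched untreated-only peak (17.5% with any untreated-only peak). An IFNg peak and no untreated one was found at 5.16%. Neighbouring genes can count the same peak, and long genes collect more peaks. Lists of genes were therefore also described by their distinct peaks, as the share of IFNg peaks that were IFNg-only, beside the 41.3% of the whole list. The naming rule covers 30 genes of 7 IFNg-related lists, those in the plot of peak numbers by gene, and the AP-1 list. All other list genes named below were chosen after their values were seen.

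Genes of the IFNg signal itself had IFNg-only peaks near 11 of 23 members, against 11.0% of all genes. Shared peaks were near 8, against 13.8%. Of 36 distinct IFNg peaks 18 were IFNg-only, 50.0% (32.9 to 67.1%), an interval that includes the 41.3% of the whole list. With a window of 50 kb the difference from all peaks went from 8.68 to -0.50 percentage points. At the receptor step, Ifngr2, a receptor chain, had 1 IFNg-only peak (−log10 p 26.6, 1.94 kb from the gene) and no other JUNB peak, and Ifngr1 had none of any class. Irf1 had 1 IFNg-only and 1 shared peak, while Irf8, a factor of the myeloid lineage, had 1 of each (15.5 for the IFNg-only peak). The feedback genes had more. Socs1, the inhibitor of JAK kinases, had 4 IFNg-only peaks and none untreated, 3 of them with IRF1, the strongest with a −log10 p of 10.0. Usp18, a protease that dampens interferon receptor signalling, had 3 IFNg-only peaks and none untreated, with IRF1 at 2 and CEBPB at 3 of them. Socs3 had 2 IFNg-only and 2 shared peaks, and Pias1, an inhibitor of the pathway, had 2 IFNg-only ones. Irf2, a repressor at IRF sites, differed, with 6 shared, 4 untreated-only and no IFNg-only peaks.

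The guanylate-binding proteins and immunity-related GTPases, which attack intracellular pathogens, had IFNg-only peaks near 9 of 18 members and shared ones near 5. Over all genes these were 11.0% and 13.8%. Of 15 distinct IFNg peaks 10 were IFNg-only, 66.7% (38.4 to 88.2%). Gbp2b had 4 IFNg-only and 2 shared peaks, Gbp3 had 3 and 2 with 1 untreated-only, and Gbp2 had 1 and 2. Gbp2b and Gbp3 share the strongest of these (chr3:142577168-142577667, −log10 p 39.6). Irgm1 had the promoter peak described above as its single JUNB peak. Gbp7 differed from its relatives, with 3 shared, 1 untreated-only and no IFNg-only peaks, and Gbp4 and Gbp9 had 1 untreated-only peak each.

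Antigen presentation genes had IFNg-only peaks near 4 of 25 members, against 11.0% of all genes, and shared ones near 6, against 13.8%. Of 12 distinct IFNg peaks 6 were IFNg-only, 50.0% (21.1 to 78.9%). Ciita, the master regulator of MHC class II genes, had 3 IFNg-only peaks, the strongest inside the gene (chr16:10486848-10487133, 36.9), and 1 untreated-only peak that was not threshold-matched. Nlrc5, the corresponding regulator of class I genes, had 1 IFNg-only peak, with IRF1 and CEBPB. The structural class II genes H2-Aa, H2-Ab1 and H2-Eb1 had no JUNB peak of any class within 20 kb, nor had the peptide transporter genes Tap1 and Tap2. B2m had 2 shared peaks and H2-DMa 2.

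Antiviral effector genes had IFNg-only peaks near 9 of 28 members, against 11.0% of all genes, and shared ones near 6, against 13.8%. Of 21 distinct IFNg peaks 12 were IFNg-only, 57.1% (34.0 to 78.2%). Of these 12 peaks, 7 overlapped an IRF1 peak, against 22.0% of all IFNg-only peaks. Ifit2 and Ifit3, which bind viral RNA, had 3 and 2 IFNg-only peaks, in part the same ones, and no untreated peak. Rsad2, the gene of viperin, and its neighbour Cmpk2 shared 2 IFNg-only peaks, both with IRF1 and CEBPB. Herc6, an ISG15 ligase gene, had 3, Aim2, a sensor of cytosolic DNA, had 2 (strongest 45.4), and Trim30a had 1 with IRF1. Isg15, Ifit1, Oas1a, Eif2ak2 and Zbp1, all interferon-induced, had no JUNB peak of any class.

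Chemokine genes were divided. IFNg-only peaks were near 5 of 20, against 11.0% of all genes, and shared ones near 12, against 13.8%. Of 26 distinct IFNg peaks 9 were IFNg-only, 34.6% (17.2 to 55.7%). The difference from all peaks, -6.70 percentage points, was 2.73 with both lists at a −log10 q of 5 or more. Cxcl9 and Cxcl10, neighbours that encode ligands of the T-cell receptor CXCR3, had 3 and 4 IFNg-only peaks, and the 3 at Cxcl9 are among the 4 at Cxcl10. Ccl5, which attracts T cells and monocytes, had 4 IFNg-only peaks and 1 shared, and Ccl12 and Ccl8 shared 1 IFNg-only peak with IRF1 and CEBPB. In contrast, Ccl2, a monocyte chemokine gene, had 4 shared and no IFNg-only peaks, and Ccl3, Ccl4, Ccl6 and Ccl9 had 3 shared each. The neutrophil chemokine genes Cxcl1, Cxcl2, Cxcl3 and Cxcl5 had 2, 2, 2 and 3 untreated-only peaks, 1, 1, 1 and 2 of them threshold-matched. None had an IFNg-only peak, while Cxcl1 and Cxcl2 also had 1 shared peak each. Neighbours among these genes can count the same peak.

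Cytokine and inflammatory mediator genes had IFNg-only peaks near 8 of 24, against 11.0% of all genes, and shared ones near 10, against 13.8%. Of 28 distinct IFNg peaks 10 were IFNg-only, 35.7% (18.6 to 55.9%). With a window of 50 kb the difference from all peaks went from -5.60 to 3.68 percentage points. Il15, which supports natural killer and memory T cells, had 2 IFNg-only and 4 shared peaks. Il6 and Csf1, the gene of the macrophage growth factor, had 1 IFNg-only peak each (−log10 p 26.4 at Csf1) and no other, as had Il12b (15.0), which encodes a subunit of interleukin 12. Nos2, the gene of inducible nitric oxide synthase, had 1 IFNg-only (14.6) and 1 shared peak. Il1b, Il1rn and Il18 had 2 shared peaks each and no IFNg-only one.

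Costimulation, checkpoint and adhesion genes had the largest share of members with an IFNg-only peak among the lists, 13 of 18. Over all genes it was 11.0%. A shared peak was near 10 of the 18, against 13.8% of all genes. The list also had the longest genes, with a median of 23.6 kb against 17.2 kb over all genes, and long genes collect more peaks. Of 43 distinct IFNg peaks 24 were IFNg-only, 55.8% (39.9 to 70.9%). Cd274, the gene of the checkpoint ligand PD-L1, had 5 IFNg-only peaks and no peak of the untreated list, 1 of them with IRF1 and 4 with CEBPB. Its neighbour Pdcd1lg2, the gene of PD-L2, had 3 IFNg-only, 1 shared and 4 untreated-only peaks. These 3 IFNg-only peaks are among the 5 counted at Cd274. Cd86, a ligand of CD28, had 4 IFNg-only peaks, the strongest inside the gene (chr16:36602622-36602997, 53.1). Itgal, the LFA-1 integrin gene (45.2 for the strongest), and Cd38, an NAD hydrolase gene (28.9), had 2 each with no untreated peak, CEBPB being at all 4. Cd40 had a single IFNg-only peak (35.4), and Cd80, Vcam1 and Fas had no JUNB peak. Just 3 of the 24 IFNg-only peaks near the list, 12.5%, had an IRF1 peak, against 22.0% of all IFNg-only peaks and 7 of 12 near antiviral genes.

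**Figure D3:**
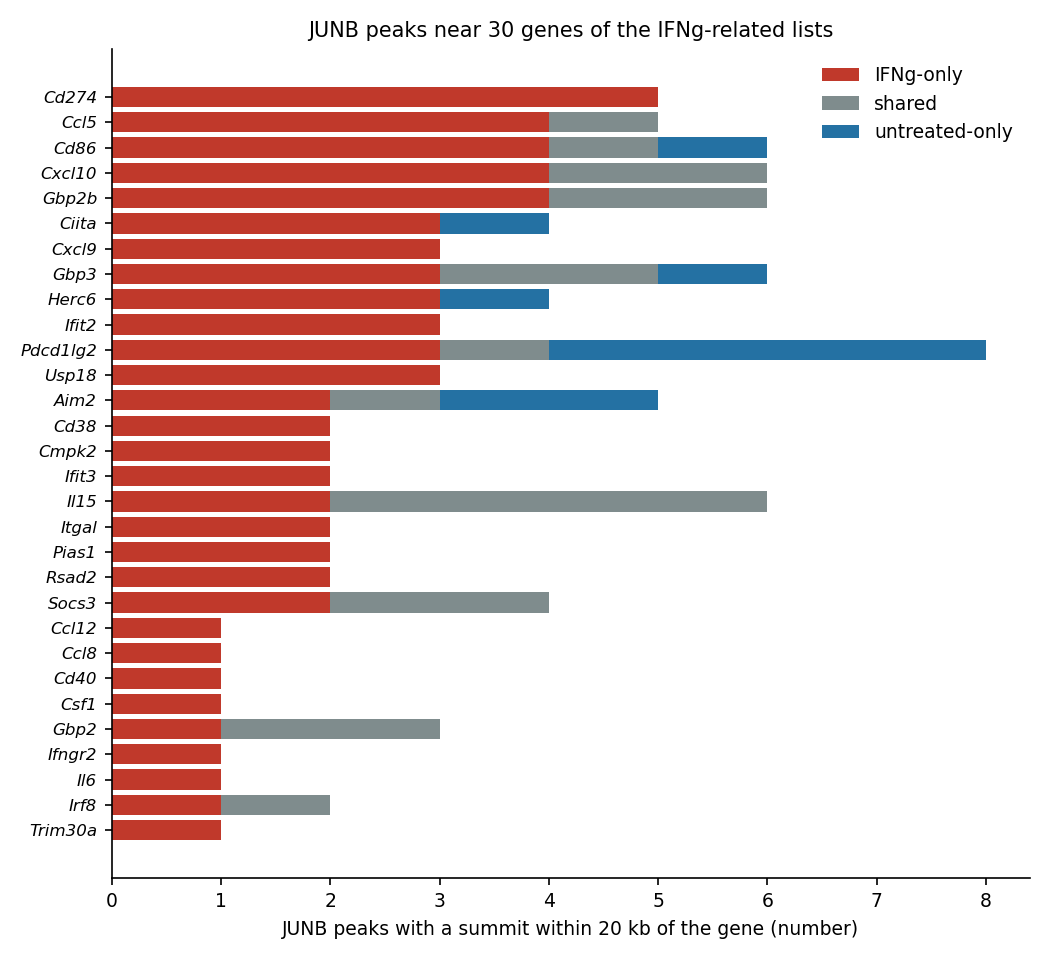
Number of JUNB peaks with a summit within 20 kb of each gene (x axis) for the 30 genes of the 7 IFNg-related lists with the strongest IFNg-only peaks (y axis), by class and from 1 library each. Neighbouring genes can share peaks. Cd274 has 5 IFNg-only peaks and no other, while Pdcd1lg2, which shares its 3 IFNg-only peaks with Cd274, has peaks of all 3 classes.

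Over the 7 lists above together, IFNg-only peaks were near 59 of 156 genes, shared ones near 57, and threshold-matched untreated-only ones near 22. For all genes these shares were 11.0%, 13.8% and 7.98%. An IFNg peak and no untreated one was found at 29 of the 156, against 5.16% of all genes. Of 181 distinct IFNg peaks 89 were IFNg-only, 49.2% (41.7 to 56.7%), just above the 41.3% of the list. Set against the threshold-matched untreated list it was 63.5%, when 3993 of all 7428 IFNg peaks were IFNg-only. Of the 89 peaks 29 (32.6%) overlapped an IRF1 peak, against 22.0% of all IFNg-only peaks. A CEBPB peak with IFNg was at 50 of the 89, against 42.6% of all. In the IFNg+IL4 JUNB list were 43 of the 89, close to the 48.0% of all IFNg-only peaks.

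Single loci show how the sites were laid out. Around Cd274 the IFNg-only summits lay at -0.97 and -0.309 kb from its start, where negative values are upstream, and at 24.0, 26.2 and 33.2 kb. A peak of both lists lay 52.1 kb downstream, inside Pdcd1lg2, with a −log10 p of 2.85 in the untreated list, so not threshold-matched. An IRF1 summit lay at -0.348 kb, next to the IFNg-only summit nearest the start, and others at -43.6, 4.52 and 52.0 kb. Around Socs1 the IFNg-only summits lay at -58.7, -1.785, 4.53, 10.7 and 15.6 kb from its start and shared ones at -53.1 and 30.8 kb, with IRF1 summits at -1.706, 10.7 and 15.7 kb. The strongest IRF1 peak of the window, at -0.059 kb (−log10 p 117), had no JUNB summit beside it. IRF1 summits at -29.3, -18.2, 44.2 and 52.8 kb had no summit of the IFNg JUNB list beside them either. At Cxcl10 the promoter peak, at -0.16 kb in the IFNg list, was shared, as were those at -19.7, -20.4 and -26.0 kb. The untreated peak at the promoter had a −log10 p of 4.79 and was not threshold-matched, so the site was shared only through the looser list. The IFNg-only peaks near Cxcl10 lay at -4.67, 2.93, 16.4 and 20.7 kb, the last beside Cxcl9, whose span begins at 20.8 kb. In the IFNg+IL4 list 2 peaks of this window were present, at -19.7 and -20.4 kb.

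**Figure D4:**
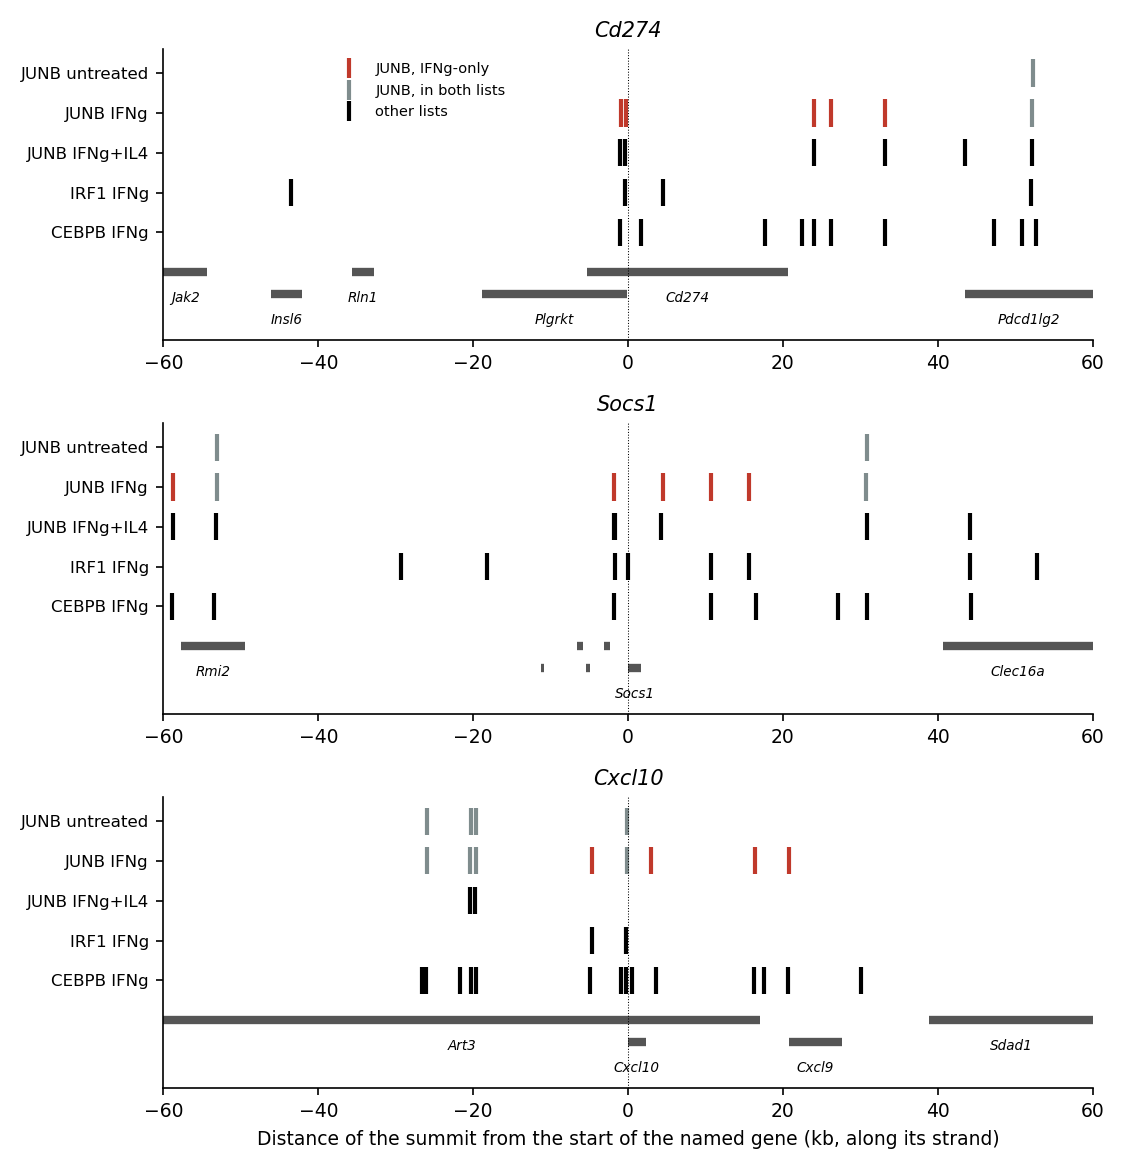
Summits of JUNB, IRF1 and CEBPB peaks (ticks, 1 library per row) by distance from the start of Cd274, Socs1 and Cxcl10 (x axis, kb along the gene's strand), with gene spans as grey bars below. The short protamine and Tnp2 genes are drawn without names. The JUNB sites nearest the starts of Cd274 and Socs1 are IFNg-only (red), that at the start of Cxcl10 is in both lists (grey), and no untreated-only peak falls in these windows. The untreated peaks at the start of Cxcl10 and near Cd274 are not threshold-matched.

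Lists not tied to IFNg had other shares. Of all genes 11.0% had an IFNg-only and 13.8% a shared peak. NF-kappa B factors and inhibitors had IFNg-only peaks near 6 of 14 and shared ones near 9, with 7 of 22 distinct IFNg peaks IFNg-only, 31.8% (13.9 to 54.9%). Relative to the whole list this changed sign with the threshold-matched untreated list, from -9.50 to 5.33 percentage points. Tnip3, an inhibitor gene, had 2 IFNg-only peaks, the strongest of the list's (46.8), and 3 shared. Matrix, protease and migration genes had IFNg-only peaks near 5 of 22 and shared ones near 12, with 7 of 29 IFNg peaks IFNg-only, 24.1% (10.3 to 43.5%). Genes of the IL4 response had IFNg-only peaks near 9 of 30 and shared ones near 10, and 13 of 28 IFNg peaks were IFNg-only, 46.4% (27.5 to 66.1%). Relative to the whole list this was 5.11 percentage points, and -16.3 when genes were given summits within 5 kb only.

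Macrophage identity genes stood at the other end. Shared peaks were near 23 of 28 members and IFNg-only ones near 8, and 11 of 61 distinct IFNg peaks were IFNg-only, 18% (9.36 to 30.0%), the single list whose interval lay below the 41.3% of all IFNg peaks. The difference from all peaks, -23.3 percentage points, was -10.9 with both lists at a −log10 q of 5 or more. No member had an IFNg peak without an untreated one. Itgam, an integrin gene of myeloid cells, had 5 shared peaks, Zeb2, Cd36 and Msr1 had 4 each, and Ctsb had 3. Csf1r, the receptor gene of the macrophage growth factor, had 2 shared and 2 untreated-only peaks. Spi1, the gene of PU.1, had 2 shared, 1 IFNg-only and 1 untreated-only peak. Mertk, a receptor for apoptotic cells, had 2 IFNg-only and 2 untreated-only peaks and no shared one. JUNB peaks of the untreated list lay near 26 of the 28 genes. They lay near 8 of 25 markers of other cell types and 5 of 25 genes of other organs. The median gene lengths of these lists were 18.2, 16.8 and 9.52 kb, and longer genes collect more peaks. Of all protein-coding genes 13.8% had a shared and 17.5% an untreated-only peak, and the share with either is not given here. These counts are what the lists can say of the labelled cell type, since expression was not measured here. IFNg-only peaks were near 3 markers of other cell types and 2 genes of other organs, and 3 of 10 (30.0%) and 4 of 7 (57.1%) IFNg peaks near them were IFNg-only. For other cell types the difference from all peaks, -11.3 percentage points, was 6.24 with the threshold-matched untreated list.

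Genes of the AP-1 family itself had 23 distinct untreated-only peaks, 9 of them threshold-matched, and 8 IFNg-only peaks. The threshold-matched number was thus close to that of IFNg-only peaks. Untreated-only peaks lay near 17 of 23 members, against 17.5% of all genes, and threshold-matched ones near 8, against 7.98%. IFNg-only peaks lay near 6 and shared ones near 6, against 11.0% and 13.8% of all genes. Of 20 distinct IFNg peaks 8 were IFNg-only, 40.0% (19.1 to 63.9%), close to the 41.3% of the whole list. Junb itself had 3 untreated-only peaks, 2 of them threshold-matched, and 1 IFNg-only peak 3.60 kb away (14.9). Jun, Jund, Fosb and Fosl2 had 1 untreated-only peak each and none with IFNg, those of Jund and Fosb threshold-matched. Fos had 1 untreated-only and 1 shared peak. Jdp2, a repressor of AP-1, had 2 IFNg-only (26.8) and 2 untreated-only peaks, and Batf, a partner of JUNB in lymphoid and myeloid cells, had 1 of each (15.7). Bach2, a repressor of the same zipper family, had 6 shared, 2 IFNg-only and 2 untreated-only peaks, and Bach1 1, 1 and 2 (42.5 for the IFNg-only one). Atf3 had 2 shared peaks and 1 of each other class, Batf3 had 2 untreated-only and Batf2 1 shared peak. Nfe2l2 had 1 shared and 1 untreated-only peak. Atf4, Atf7 and Maf had 1 untreated-only peak each, none of them threshold-matched. Fosl1, Atf2, Maff, Mafg and Mafk had none of any class. None of the 8 IFNg-only peaks near these genes overlapped an IRF1 peak. Over all IFNg-only peaks 22.0% did, and 8 peaks are too few to tell these apart.

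**Figure D5:**
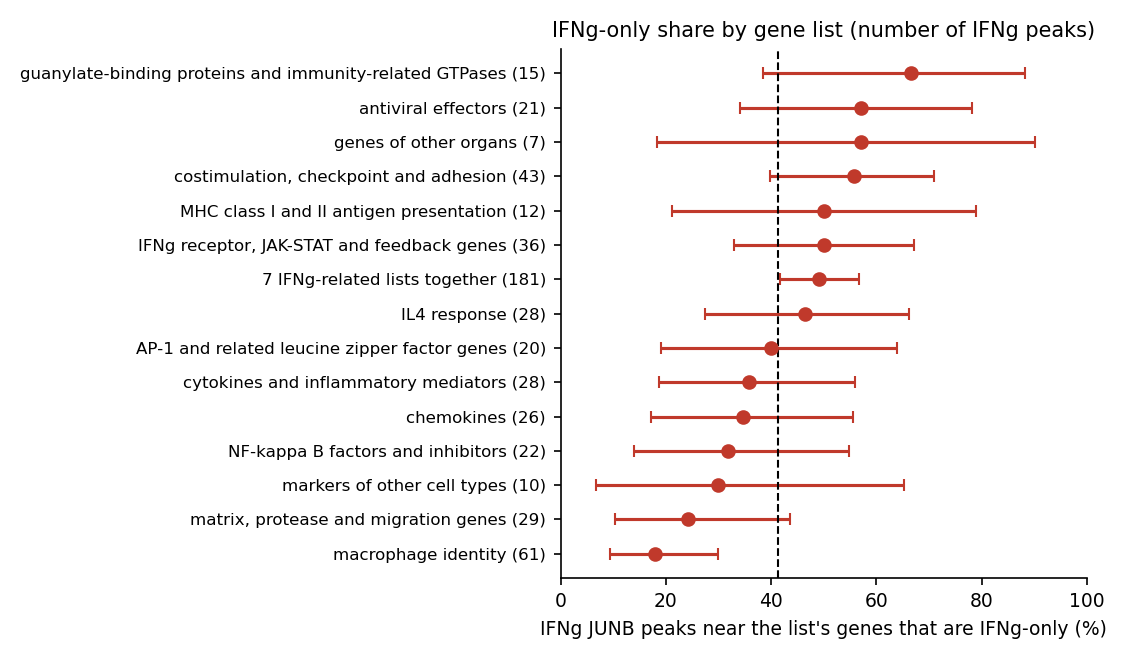
Share of IFNg JUNB peaks near the genes of each list that are IFNg-only (x axis, %), with exact 95% intervals as bars and the number of distinct IFNg peaks in parentheses. The dashed line is the share over all IFNg peaks, 41.3%. Macrophage identity genes lie below the line at 18%, and the 7 IFNg-related lists together lie just above it at 49.2%.

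Clusters of IFNg-only peaks pointed to genes outside the lists. The 10 genes with most IFNg-only peaks within 20 kb were mostly long. Lpp, a focal adhesion gene of 599 kb, had 9, beside 11 shared and 4 untreated-only peaks. Hdac9, a histone deacetylase gene of 870 kb, had 8 IFNg-only, 2 shared and no untreated-only peaks. With 6 each followed Tbxas1, Sgms1, a sphingomyelin synthase gene, Pde4b, a cyclic AMP phosphodiesterase gene, Pla2g4a, Rad51b, a recombination gene, Gnaq, a G protein gene, and Lrch1. Pla2g4a, whose phospholipase releases arachidonic acid, had 6 IFNg-only, 4 shared and no untreated-only peaks over 132 kb, and Tbxas1 had 6, 3 and 2 over 220 kb. Etv6 had 5 IFNg-only, 4 shared and 3 untreated-only peaks.

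Of 157 genes with at least 3 IFNg-only peaks, 39 had no untreated JUNB peak. Over all genes 2405 had an IFNg-only peak and 1129 had an IFNg peak and no untreated one. A lack of untreated peaks was thus not particular to genes with many IFNg-only peaks. Of the 39, those with 4 or more IFNg-only peaks were Cd274 (5), Socs1 and its small neighbour Tnp2, Alg14, Taf4b, Fam3b, Ankdd1a, Kcnab1, Il2ra and Mpp6 (4 each). Il2ra encodes the alpha chain of the interleukin 2 receptor, and its neighbour Il15ra had 3. Others with 3 were Dusp10, a phosphatase gene of the MAP kinases (strongest 121), Bcl2l14 (150), Gm2a and Ccr1, a chemokine receptor gene. Those with fewer than 4 were named after their values were seen. In stretches of at most 100 kb, up to 6 IFNg-only summits were found together, near Hhex, a homeobox gene (chromosome 19, 75.1 kb, with 1 untreated peak), and within Lrch1 (chromosome 14, 96.4 kb, with 2). Near Plekho2 5 fell within 12.1 kb on chromosome 9.

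On the untreated side, the 6 strongest untreated-only peaks stood lower in rank than their IFNg counterparts. The strongest, 8.18 kb from Efcab2 (chr1:178492462-178492863), had a −log10 p of 33.5 and was rank 366 of 9229 in its list. The next lay inside Col15a1, a collagen gene (chr4:47231297-47231759, 32.0). Others lay 1.59 kb from Gm4832 (27.7), 9.36 kb from Ppp1r1c (27.6) and 47.9 kb from Dlx2, a homeobox gene (26.8). None of the 6 overlapped an IRF1 peak, 3 overlapped a CEBPB peak with IFNg, 4 a STAT6 peak with IL4, and 2 were in the IFNg+IL4 JUNB list. Threshold-matched untreated-only summits fell in 54 promoter windows. The AP-1 letters were in 14 of them, 25.9% (15.0 to 39.7%), the IRF letters in 0, which allows up to 6.60%, and the cyclic AMP response element TGACGTCA in 6, 11.1% (4.19 to 22.6%), against 0 of the 36 IFNg-only windows, 2 of the 102 shared windows and 2.23% of all windows. The 6 windows with TGACGTCA include those of Znrd1 and its neighbour Znrd1as, also named after their values were seen. These windows overlap and hold the same peak, so the interval treats them as more separate than they are. Examples are shown from Btg2, an antiproliferative gene, and Zfp335, a zinc finger gene, both chosen after their values were seen, with TGACGTCA in capitals.
Btg2 (chr1:134079289-134079346, minus strand): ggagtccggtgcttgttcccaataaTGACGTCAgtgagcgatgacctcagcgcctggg
Zfp335 (chr2:164911784-164911841, minus strand): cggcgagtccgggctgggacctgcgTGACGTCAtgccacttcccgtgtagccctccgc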

How the data were processed

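Peak lists from 1 ChIP-seq library per group were used, made per sample by the authors. Per the submitters' processing notes, Bowtie2 2.2.6 and MACS2 2.1.0.20150731 were used with mm10/GRCm38, while the settings were not given in sources used here. For each peak the deposited files give a score, a fold enrichment as a ratio to the control at the summit, a −log10 p, a −log10 q and the summit's offset. The deposited score is 10 times the −log10 q, and in the untreated JUNB list 10 times the −log10 p. These values of the authors ranked or filtered peaks within a list only.

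Peaks on chromosomes 1 to 19, X and Y without overlap with the input list were kept, and sharing meant at least 1 bp. Relative depth was the step that placed most low fold and −log10 p values within 0.001 of whole fragments (99.3% of values untreated, all 427 values with IFNg). This assumes a common input scaled linearly. Genes (21883 protein-coding) and promoter windows (21262, for 17491 of these genes, none on chromosome 18) came from RefSeq tables of GRCm38.p6. Genes were assigned every summit up to 20 kb outside their span. In 14 gene lists 317 of 320 genes were matched. Intervals are exact at 95%. Members, lists and comparisons were chosen with earlier results of these data known. Named were the 10, 6 and 6 strongest peaks of the 3 classes, the 10 genes with most IFNg-only peaks, up to 30 genes of the 7 IFNg-related lists by their strongest IFNg-only peak, and the AP-1 list. Overlap, gene assignment and depth steps were tested on simulated data. Python 3.11.15, pandas 2.3.3, NumPy 2.4.6, SciPy 1.17.1 and Matplotlib 3.10.9 were used. A few members are not reported here by name, though they are included in counts.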

Additional observations from a re-analysis of the deposited data

How the results depend on the processing

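With 1 library per group no replicate could be left out. No paired analysis was possible because each group was 1 library. The share of IFNg peaks that were shared (58.7%) was 48.4% with a reciprocal overlap of 50%, 54.5% with summits at most 100 bp apart, 46.2% with the untreated list at a −log10 q of at least 2, 34.5% with both lists at 5 and 54.5% with the same number of strongest peaks. For the untreated list (46.9%) these were 39.0%, 43.9%, 63.6%, 77.5% and 54.1%. Untreated-only peaks numbered 4897, against 1951 at 2 and 691 at 5. IFNg-only peaks stayed within 1.5 times 3069 (2981 to 4544), and all 10 named IFNg-only and 6 named untreated-only peaks kept their class in the settings run.

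The difference between IFNg-only and shared peaks in overlap with other lists kept its direction throughout. For IRF1 (14.8 percentage points) it was 11.96 with all lists at 5. For CEBPB untreated (-20.0) it was -17.5 by summits, -16.8 at a q of 5 and -18.0 with the untreated list at 2. For CEBPB with IFNg (-26.4) these were -23.2, -20.2 and -23.0, and for STAT6 with IL4 (-40.3) they were -36.3, -31.3 and -34.2, with -28.7 for the IFNg+IL4 STAT6 list, added after seeing the data. For JUNB with IFNg+IL4 (-23.8) it was -31.1 at 5, -27.1 at 2 and -14.8 as the mean of 5 classes of −log10 p. The promoter difference (-0.50 percentage points within 1 kb) was reversed within 5 kb (1.53) and with both lists at 5 (1.10). The IFNg-only share near genes of the 7 IFNg-related lists (49.2%) was 63.5% with the untreated list at 2 and 73.2% with both at 5. In the same settings the shared part of all IFNg peaks fell from 58.7% to 46.2% and 34.5%. The IFNg-only share of the whole list thus rose as well. The AP-1 letter difference in promoters (-27.5 percentage points) was -45.3 at 5, and the IRF one (21.7) ran from 12.3 to 19.6 in the other settings, 2 of them added after seeing the data. Of 56 alternative values for the 14 gene lists 48 kept their sign relative to all peaks. The cause of these shifts was not tested. Motif windows around summits were not run for want of a genome.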
